A study of Mus musculus with 24 samples.

Results

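The set described here holds 10 genes of the H2 region on mouse chromosome 17: the major histocompatibility complex (MHC) class I heavy chains H2-K1, H2-D1, H2-T23, H2-Bl, H2-T22, H2-Q4 and H2-M3, and the peptide-loading genes Tap1, Tap2 and Tapbp. They were taken by symbol from a table of 15232 genes. Rows were found for 9 of them, and H2-T22 is not analysed here. The set was selected on results of these same libraries, because H2-Bl and H2-T23 differed in opposite directions between the genotype labels. Differences of the set between libraries labelled KO and WT are therefore given as a description with no test, and the tests below bear on training, on sex and on genes outside the set.

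A class I molecule is a heavy chain bound to beta-2-microglobulin (B2m) that carries a short peptide to the cell surface. The peptides come from the proteasome, are pumped into the endoplasmic reticulum by the transporter that Tap1 and Tap2 form, and are fitted into the heavy chain with the help of tapasin (Tapbp), calreticulin (Calr) and the disulphide isomerase Pdia3. The classical chains H2-K1 and H2-D1 present to cytotoxic T cells, and the nonclassical chains have narrower roles: H2-T23 gives the Qa molecule that inhibitory and activating receptors of natural killer cells read, and H2-M3 binds formylated peptides. In the brain, class I is made by endothelial cells and microglia and in some neurons, where it has been studied for its part in synapse refinement.

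The RNA came from the whole anterior cingulate cortex (ACC), a frontal cortical area, of 24 mice, with 1 library per mouse. The libraries formed 3 arms of 8, each of 4 females and 4 males: untrained mice labelled WT, untrained mice labelled Thbs1/2 KO and trained mice labelled Thbs1/2 KO. The thrombospondins that Thbs1 and Thbs2 encode are matrix proteins secreted by astrocytes. Trained mice worked in a skinner box and were food deprived for it, so that training and food deprivation cannot be told apart. Trained mice labelled WT were not analysed here, and age and strain are not given in the sources used here. The tissue is bulk, so fewer cells of a type and less RNA per cell cannot be told apart.

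Depth, over the 15216 genes whose whole reads could be recovered, ranged from 12542736 to 19439437 reads in the arm labelled WT, from 12005082 to 26559888 in the untrained arm labelled KO and from 16330094 to 19862033 in the trained arm. Both targeted genes lay higher, not lower, in the libraries labelled KO. Thbs1 was at 0.254 to 0.716 FPKM (fragments per kilobase, scaled for library size) in libraries labelled WT and at 2.77 to 5.91 FPKM in the 16 labelled KO. Thbs2 was at 1.52 to 2.31 FPKM and 2.82 to 3.95 FPKM. From levels per gene, exchanged labels and disrupted alleles that still give reads cannot be told apart, and neither was tested. Every direction below rests on the genotype labels as given. Male untrained library 3 labelled KO held the 26559888 reads and stands apart from its arm, and trained female library 1 held 92.4 FPKM of choroid plexus and meningeal markers (Ttr at 81.9 FPKM) against at most 15.99 FPKM elsewhere. Animal numbers over 1000 were borne by all 8 trained mice, 2 untrained mice labelled KO and 1 labelled WT.

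Because FPKM is per length, levels can be ordered across genes. Over the 24 libraries, which pool arms that differ for H2-T23 and H2-Bl, the mean level was highest for H2-K1, at 13.8 ± 1.72 FPKM (SD, n = 24). H2-D1 followed at 9.46 ± 1.52 FPKM, H2-T23 at 8.997 ± 3.23 FPKM and Tapbp at 8.66 ± 0.873 FPKM, and these neighbours lay within 1 SD of each other. H2-Bl averaged 3.43 ± 2.78 FPKM and Tap2 2.85 ± 0.5259 FPKM, again within their spread. H2-Q4 at 1.62 ± 0.386 FPKM and H2-M3 at 1.5005 ± 0.414 FPKM could not be ordered either, and Tap1 was lowest at 0.860 ± 0.260 FPKM. The SD of H2-Bl was nearly as large as its mean, unlike that of any other gene of the set. In the arm labelled WT alone the order was different: H2-T23, with a mean of 13.2 FPKM, lay above H2-K1 at 12.6 FPKM, within their spread, and H2-Bl was lowest at 0.441 FPKM, below Tap1 at 0.807 FPKM. Counts behind these levels ran from 4 reads, for H2-Bl in 1 library, to 846, for Tapbp in another. Of the 9 genes, 8 had a mean of at least 1 FPKM and entered the fits across 12572 genes. Tap1 did not, and H2-Bl passed through the libraries labelled KO alone.

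**Figure D1:**
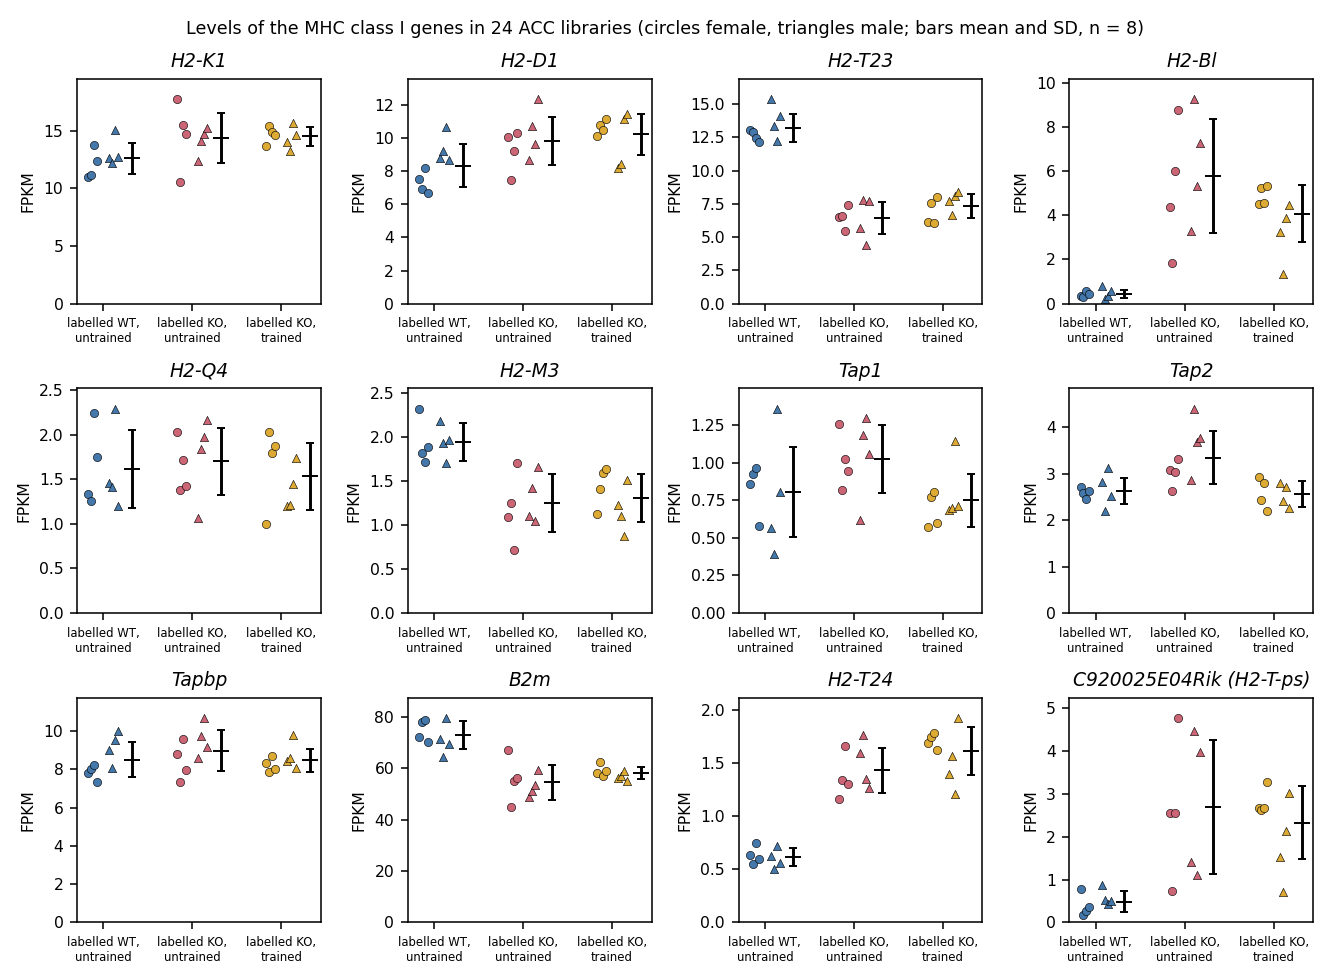
Level in FPKM (y axis, from 0, own scale per panel) of the 9 class I genes, B2m, H2-T24 and C920025E04Rik, a RefSeq synonym of H2-T-ps, in each library by arm (x axis). Circles are females, triangles males, and bars the mean and SD of 8 libraries. H2-T23 and H2-M3 lie lower, and H2-Bl and H2-T24 higher, in all 16 libraries labelled KO than in the 8 labelled WT.

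The 2 classical heavy chains lay slightly higher in the libraries labelled KO, with overlapping values. H2-K1 (chr17:33996012-34000619 of GRCm38) was at 10.98, 12.5 and 15.1 FPKM (lowest, median, highest of 8) in the arm labelled WT. It was at 10.6, 14.7 and 17.7 FPKM in the untrained arm labelled KO and at 13.2, 14.6 and 15.7 FPKM in the trained arm. Only 3 of 8 untrained libraries labelled KO lay above the highest labelled WT, and 1 lay below the lowest. H2-D1 (chr17:35263094-35267497) was at 6.68, 8.45 and 10.7 FPKM in the arm labelled WT, at 7.48, 9.86 and 12.3 FPKM in the untrained arm labelled KO and at 8.22, 10.6 and 11.5 FPKM in the trained arm. On the log2(FPKM + 1) scale, on which all differences below are given, the untrained arm labelled KO lay 0.17 above the arm labelled WT for H2-K1 and 0.21 for H2-D1. For H2-D1 the difference was 0.29 in females and 0.13 in males, and for H2-K1 it was 0.24 and 0.10.

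H2-T23 and H2-Bl lie 47.4 kb apart, and libraries labelled KO held less of the first and more of the second. H2-T23 (chr17:36029977-36032701) was at 12.2, 12.98 and 15.4 FPKM in the arm labelled WT. In the untrained arm labelled KO it was at 4.38, 6.56 and 7.79 FPKM and in the trained arm at 6.05, 7.65 and 8.43 FPKM. Every library labelled KO lay below every library labelled WT, and the mean of the untrained arm was 0.488 of that labelled WT. H2-Bl (chr17:36080110-36084249), which RefSeq lists as a transcribed pseudogene, was at 0.189, 0.400 and 0.800 FPKM in the arm labelled WT. It was at 1.86, 5.67 and 9.25 FPKM in the untrained arm labelled KO and at 1.35, 4.49 and 5.34 FPKM in the trained arm. No library labelled KO overlapped with those labelled WT, and the mean was 13.1 times as high in the untrained arm and 9.25 times as high in the trained arm. These H2-Bl levels rested on 4 to 15 reads per library labelled WT, 34 to 179 per untrained library labelled KO and 29 to 112 per trained library.

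The 2 arms labelled KO are each set against the same libraries labelled WT. H2-Bl differed by 2.13 in the untrained arm and 1.77 in the trained arm, and H2-T23 by -0.95 and -0.77. Within the sexes of the untrained arms H2-Bl differed by 2.02 in females and 2.25 in males, and H2-T23 by -0.87 and -1.02. The H2-Bl difference depends on the scale, since its levels labelled WT are low: it was 3.36 with a pseudocount of 0.1 and 3.62 in limma-voom on the recovered reads.

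The set was chosen because this pair moved in opposite directions, so the sum and share of the pair restate those values and are given as a description. H2-T23 and H2-Bl together came to 12.6, 13.3 and 16.2 FPKM in the arm labelled WT, 8.48, 11.2 and 17.04 FPKM in the untrained arm labelled KO and 7.98, 11.5 and 13.4 FPKM in the trained arm. H2-Bl made up 1.39% to 4.95% of that sum in libraries labelled WT. Its share lay between 21.9% and 55.0% in the untrained arm labelled KO and between 16.9% and 43.1% in the trained arm. The sums of the arms overlapped.

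**Figure D2:**
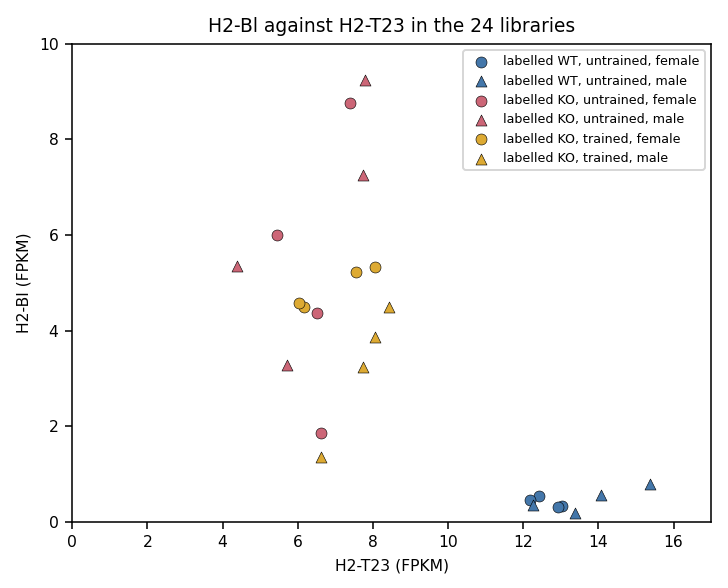
H2-Bl (y axis, FPKM) against H2-T23 (x axis, FPKM) in the 24 libraries, coloured by arm, circles female and triangles male. The 8 libraries labelled WT sit at 12.2 to 15.4 FPKM of H2-T23 and at most 0.800 FPKM of H2-Bl, and the 16 labelled KO at 4.38 to 8.43 FPKM and 1.35 to 9.25 FPKM.

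The heavy chains are copies of each other, so the sequences bear on how reads could be assigned. The start of exon 2, which encodes part of the peptide groove, is shown for H2-T23, H2-Bl and H2-D1 as an example. It was not chosen by likeness, and more alike stretches may lie elsewhere in the transcripts. The 120 bases lie at chr17:36032303-36032422 on the minus strand for H2-T23, chr17:36083846-36083965 on the minus strand for H2-Bl and chr17:35263379-35263498 on the plus strand for H2-D1, read 5′ to 3′ from the GENCODE M21 transcripts. Capitals mark the bases at which H2-T23 and H2-Bl differ from each other and, in the third line, those at which H2-D1 differs from H2-T23.
H2-T23: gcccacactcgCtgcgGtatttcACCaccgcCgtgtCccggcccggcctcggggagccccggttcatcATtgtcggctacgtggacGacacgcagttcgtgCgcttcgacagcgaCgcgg
H2-Bl: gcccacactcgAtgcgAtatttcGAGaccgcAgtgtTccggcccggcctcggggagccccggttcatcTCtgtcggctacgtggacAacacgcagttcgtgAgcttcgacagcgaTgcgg
H2-D1: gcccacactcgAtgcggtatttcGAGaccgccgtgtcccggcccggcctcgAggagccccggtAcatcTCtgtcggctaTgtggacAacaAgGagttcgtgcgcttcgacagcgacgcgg

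H2-T23 and H2-Bl differed at 12 of the 120 bases shown and at 49 of the 270 bases of the exon, an identity of 81.9%. H2-Bl and H2-D1 differed at 28 of the 270. Across the aligned bases of 1 whole transcript per gene, H2-T23 and H2-Bl were 81.0% identical, H2-Bl and H2-D1 89.7%, and H2-K1 and H2-D1 90.8%. Of all 50-base windows of a gene's transcripts, 13.6% for H2-T23, 9.40% for H2-Bl, 9.63% for H2-K1, 12.8% for H2-D1 and 21.8% for H2-Q4 occurred exactly in a transcript of another gene. Only 55 of the 2000 windows of H2-Bl occurred in H2-T23, while H2-T23 shared most with H2-T-ps, at 183 of 3023. Reads from such windows could be split or dropped in the authors' counting, so the levels of H2-K1, H2-D1, H2-T23, H2-Bl and H2-Q4 are uncertain. The shares count exact matches between reference transcripts only and set no limit on that uncertainty. How far mapping moved the difference of H2-T23 and H2-Bl was not tested. H2-M3, at 0.576%, and B2m, at 0, shared almost no window or none.

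The other nonclassical chains were low. H2-M3 (chr17:37270234-37274485) was at 1.71, 1.91 and 2.32 FPKM in the arm labelled WT, 0.721, 1.18 and 1.71 FPKM in the untrained arm labelled KO and 0.873, 1.32 and 1.64 FPKM in the trained arm. All 16 libraries labelled KO lay below the 8 labelled WT, by a margin of the fourth digit between the closest libraries (1.709 and 1.707 FPKM), and the untrained difference was -0.40 on 15 to 50 reads per library. H2-Q4 (chr17:35379617-35384674), a chain of the Q region, was at 1.20, 1.43 and 2.29 FPKM, 1.06, 1.78 and 2.17 FPKM and 1.00, 1.59 and 2.03 FPKM in the same order of arms. Its values overlapped throughout, and the untrained difference was 0.05. In the set, 3 of the 8 tested genes (H2-T23, H2-Bl and H2-M3) had no overlap between the untrained arms and likewise between all 16 libraries labelled KO and those labelled WT. Of all tested genes, 0.501% had none between the untrained arms and 0.374% none against all 16, and nothing is read from that contrast, which chose the set.

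The loading genes overlapped between the labels. Tap1 (chr17:34187556-34197225) was at 0.392, 0.832 and 1.36 FPKM in the arm labelled WT, 0.617, 1.04 and 1.295 FPKM in the untrained arm labelled KO and 0.575, 0.705 and 1.14 FPKM in the trained arm. Tap2 (chr17:34204479-34216321), its partner in the transporter, was at 2.19, 2.61 and 3.12 FPKM, 2.63, 3.21 and 4.40 FPKM and 2.20, 2.56 and 2.92 FPKM. Tap2 was thus highest in the untrained arm labelled KO, where 4 of 8 libraries lay above the highest labelled WT, and the trained arm fell back into the range labelled WT. Tapbp (chr17:33919478-33929290) was at 7.36, 8.16 and 10.005 FPKM, 7.36, 8.98 and 10.7 FPKM and 7.87, 8.38 and 9.80 FPKM. The untrained difference between the labels was 0.17 for Tap1 (fitted without the filter on low levels), 0.25 for Tap2 and 0.07 for Tapbp.

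Genes outside the set could be tested between the untrained arms. In limma over all 12572 genes, 1.42% passed an adjusted p of 0.05 for the genotype label. Of 103 tested genes on lists of class I partners, immunoproteasome, regulators, other H2 genes, class II, the H2 region and interferon-stimulated genes, 4 passed: B2m, the interferon-gamma receptor chain Ifngr1, and the class I genes H2-T24 and H2-T-ps. The last 2 averaged under 1 FPKM in the arm labelled WT and entered the fit through the libraries labelled KO alone, so nothing is read from the count of 4.

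B2m, the light chain that every class I heavy chain needs, lies on chromosome 2 (chr2:122147687-122153082), 4.02 Mb from Thbs1. Thbs2 lies on chromosome 17 like the set, 19.2 Mb from Tapbp. The part of nearness to a targeted gene was not tested. B2m is described next. It was at 64.5, 71.7 and 79.5 FPKM in the arm labelled WT, 44.7, 54.3 and 66.9 FPKM in the untrained arm labelled KO and 55.0, 57.7 and 62.5 FPKM in the trained arm. Of the untrained libraries labelled KO 7 of 8 lay below the lowest labelled WT, as did all 8 trained ones. The untrained difference was -0.42 (SE 0.0677, limma adjusted p = 0.0023). It kept its direction and passed in each of the 13 other settings and the 16 fits without 1 library, with adjusted p-values from 6.78e-05 to 0.0127. Of 12 microglial markers 1 moved with it, Trem2, which fell by 0.44 (limma adjusted p = 0.00351). The summed level of those 12 markers was 226 to 264 FPKM in the arm labelled WT and 211 to 264 FPKM in the untrained arm labelled KO. Of 10 endothelial markers 0 passed in limma (1 at an unadjusted p under 0.05, 0 in limma-voom), with sums of 78.1 to 107 FPKM and 78.2 to 114 FPKM. The part of cell numbers in the B2m difference was not tested.

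Ifngr1, on chromosome 10, rose by 0.42 (SE 0.0577, limma adjusted p = 0.000494), from 6.35, 7.26 and 8.99 FPKM in the arm labelled WT to 9.12, 10.2 and 11.6 FPKM in the untrained arm labelled KO, with no overlap. The other regulators gave no call: 1 of 20 tested passed in all, and Nlrc5, the class I transactivator, was at only 0.0804 to 0.250 FPKM in the untrained arms and was not tested. Of 9 proteasome genes 0 passed in limma, 0 at an unadjusted p under 0.05 and 0 in limma-voom, with a median difference of 0.04. The inducible subunit Psmb8 had a median of 1.65 FPKM in the arm labelled WT and 1.80 FPKM in the untrained arm labelled KO, and Psmb9 of 1.14 and 1.03 FPKM. Of 15 interferon-stimulated genes 0 passed in limma, 1 at an unadjusted p under 0.05 and 0 in limma-voom, with a median of 0.03 beside -0.0014 for all tested genes. Apart from B2m, the 12 partners gave no call, and Calr differed by -0.03 (limma adjusted p = 0.88).

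Other genes of the H2 region were tested for the genotype label as well. From Tapbp to H2-M3, over 3.36 Mb, 93 genes were tested, 85 of them outside the set, and 5 of those 85 (5.88%) passed for the genotype label. They were Gtf2h4, a subunit of a general transcription factor, and Gm8801, A930015D03Rik, H2-T24 and H2-T-ps, of which Gtf2h4, Gm8801 and A930015D03Rik are named after their values were seen. H2-T24, H2-T-ps and Gm8801 entered the fit through the libraries labelled KO alone, and nothing is read from the share of 5.88%. All but Gtf2h4 lie with H2-T23 and H2-Bl in 165.0 kb, a span drawn from Gm8801 to H2-T-ps after the calls were seen. Its bounds are called genes, so nothing is read from how close together they lie. The span held 9 tested genes. The 3 others there, Abcf1, Prr3 and Gnl1, did not pass.

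H2-T24 (chr17:36003471-36020800), a nonclassical chain, was at 0.505, 0.613 and 0.747 FPKM in the arm labelled WT, 1.17, 1.35 and 1.77 FPKM in the untrained arm labelled KO and 1.21, 1.66 and 1.92 FPKM in the trained arm. The arms by label did not overlap, and it rose by 0.59 (SE 0.0621, limma adjusted p = 2.37e-05, and 8.36e-06 over all 15232 genes with no filter on level). H2-T-ps, found under C920025E04Rik (chr17:36109030-36111723), was at 0.163, 0.467 and 0.867 FPKM, 0.740, 2.55 and 4.76 FPKM and 0.715, 2.64 and 3.27 FPKM. It rose by 1.21 (SE 0.227, limma adjusted p = 0.009, and 0.00911 with no filter), with 7 of 8 untrained libraries labelled KO above the highest labelled WT. Gm8801, a transcribed pseudogene, was listed at 0 in all 8 libraries labelled WT and at 1.37 to 2.31 FPKM in the untrained ones labelled KO, so it passed the filter through the latter alone. The noncoding A930015D03Rik (chr17:35994504-36038174), whose span holds H2-T24 and H2-T23, was at 1.64 to 2.99 FPKM in the arm labelled WT and 8.35 to 10.06 FPKM in the untrained arm labelled KO. The strand setting of the counting is not given in the sources used here, so reads of A930015D03Rik and of the genes in its span may not be told apart. H2-T23, in the same span, went the opposite way.

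**Figure D3:**
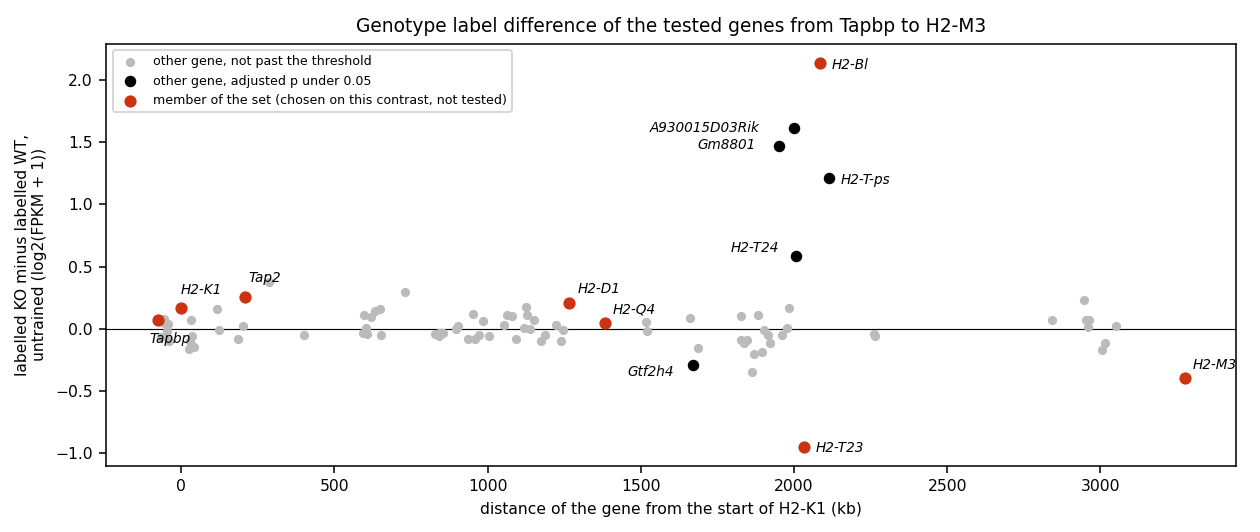
Difference between the untrained arms, labelled KO minus labelled WT, in log2(FPKM + 1) (y axis) of the 93 tested genes from Tapbp to H2-M3 by distance from the start of H2-K1 in kb (x axis). Red points are the 8 tested genes of the set, which were chosen on this contrast, black points the 5 other genes past an adjusted p of 0.05, and grey points the rest. The points farthest from 0 lie in the cluster around H2-T23 and H2-Bl. Outside it the widest were H2-M3 at -0.40, H2-Aa at 0.38 and Nrm at -0.35.

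The genes of the set also varied among libraries of the same arm and sex. After the mean of each arm and sex was taken off, Pearson's r over the 24 libraries is given as a description, since libraries share their depth and dissection. H2-K1 varied with B2m (r = 0.843, Spearman's rho = 0.694), H2-Q4 (r = 0.734), H2-D1 (r = 0.714), Psmb9 (r = 0.740) and Tap1 (r = 0.627). B2m was the gene most like H2-K1 among all tested genes, ahead of the matrix proteoglycan Bgn (r = 0.759) and complement C4b (r = 0.755). Without male untrained library 3 labelled KO the value for B2m was 0.845. Tap1 varied most with Tapbp in the set (r = 0.720).

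H2-T23 did not vary with H2-K1 but had an r of 0.391 with H2-D1, while H2-Bl varied with both classical chains. H2-T23 had an r of -0.00 with H2-K1, 0.665 with H2-M3 and 0.479 with H2-Bl. H2-T23 and H2-Bl thus did not vary in opposite directions within the arms. The genes most like H2-T23 were the autophagy gene Atg13 (r = 0.861), the protease Capn1 (r = 0.847) and the lysosomal enzyme Hgsnat (r = 0.824), which fell to 0.793, 0.772 and 0.733 without male untrained library 3 labelled KO. Those most like H2-Bl were its neighbour H2-T-ps (r = 0.874), the vesicular glutamate transporter Slc17a6 (r = 0.854) and the glycogen phosphorylase Pygm (r = 0.794). H2-Bl had an r of 0.58 with H2-K1 and 0.666 with H2-D1. In libraries labelled WT H2-Bl rested on 4 to 15 reads and H2-T-ps on 3 to 18. The SD of H2-Bl in log2(FPKM + 1) was 0.187 in that arm, 0.625 in the untrained arm labelled KO and 0.465 in the trained arm. Its r values thus rest mostly on the libraries labelled KO. Those most like H2-D1 were the matrix protein Vtn (r = 0.837), Gjd2 (r = 0.764) and Pvrl4 (r = 0.753).

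**Figure D4:**
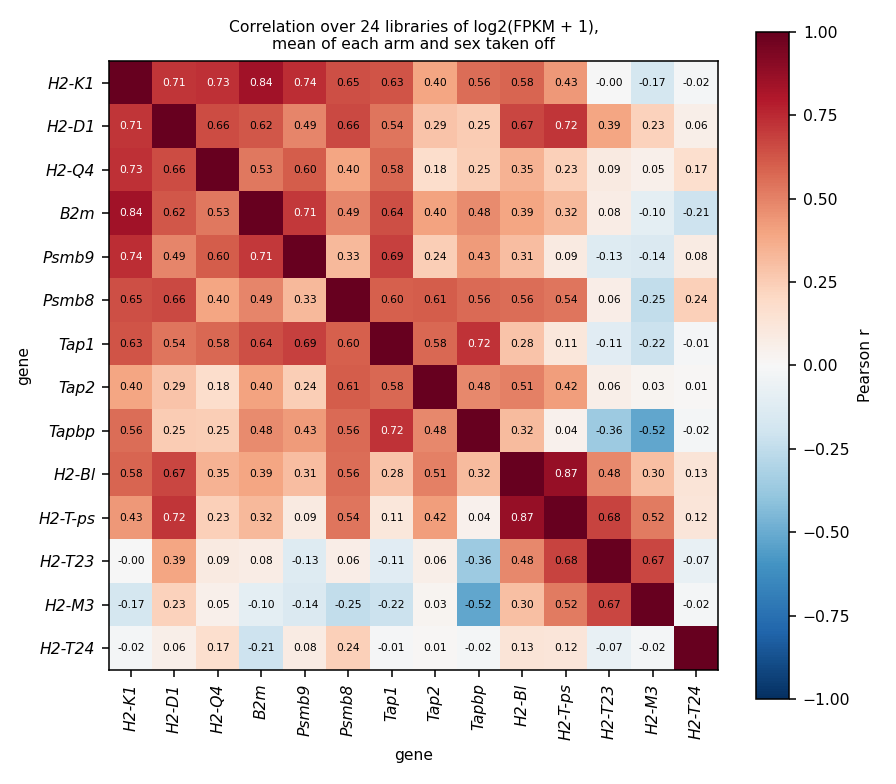
Pearson's r over 24 libraries of log2(FPKM + 1), with the mean of each arm and sex taken off, between the class I genes and the genes shown beside them (both axes); red is positive, blue negative. H2-K1, H2-D1, H2-Q4, B2m, Psmb9 and Tap1 vary together, and H2-T23 and H2-M3 vary with each other and not with H2-K1.

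The promoters of H2-K1, H2-D1 and H2-T23 are shown as examples. H2-K1 and H2-D1 varied together, and H2-T23 did not vary with H2-K1. They are the 250 bases before a RefSeq start (GRCm38.p6): chr17:34000348-34000597 on the minus strand, chr17:35262844-35263093 on the plus strand and chr17:36032702-36032951 on the minus strand, 5′ to 3′. For H2-K1 this window lies within the span of the gene given above, which ends at 34000619. Bases beyond that end were not searched. Capitals mark matches, on either strand, to 4 motifs: CCAAT (the Y box of MHC promoters), TGACGC (as in their X2 box), GGGNNTTCC (a kappa B-like site) and TTCNNTTTC (the core of an interferon-stimulated response element).
H2-K1: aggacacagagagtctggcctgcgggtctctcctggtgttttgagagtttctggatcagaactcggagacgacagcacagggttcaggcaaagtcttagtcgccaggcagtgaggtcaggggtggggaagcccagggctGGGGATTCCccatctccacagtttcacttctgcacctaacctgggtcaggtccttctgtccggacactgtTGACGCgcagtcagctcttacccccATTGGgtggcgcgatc
H2-D1: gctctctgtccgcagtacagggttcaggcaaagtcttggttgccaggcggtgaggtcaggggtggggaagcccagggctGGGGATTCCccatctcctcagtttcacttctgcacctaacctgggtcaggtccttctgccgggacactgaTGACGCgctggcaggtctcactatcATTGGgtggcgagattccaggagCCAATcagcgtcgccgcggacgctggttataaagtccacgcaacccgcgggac
H2-T23: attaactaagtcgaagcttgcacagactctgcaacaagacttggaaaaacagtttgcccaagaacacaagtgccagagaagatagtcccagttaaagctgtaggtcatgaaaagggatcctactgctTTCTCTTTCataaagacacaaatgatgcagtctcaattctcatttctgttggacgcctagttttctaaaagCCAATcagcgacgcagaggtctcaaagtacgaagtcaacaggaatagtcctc

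H2-K1 held the kappa B-like letters at -111, TGACGC at -41 and ATTGG, the reverse complement of CCAAT, at -16 from the start. H2-D1 held the same 3 in the same order and spacing at -171, -101 and -76, and a further CCAAT at -53. RefSeq lists a second start of H2-K1, 14 bases downstream. The window before it held such a further CCAAT too, at -6, with the reverse complement of CCAAT at -30. H2-T23 held TTCTCTTTC at -123 and CCAAT at -52, and neither TGACGC nor the kappa B-like letters. H2-Q4, with an r of 0.734 with H2-K1 beside 0.714 for H2-D1, held the kappa B-like letters at -173 and no TGACGC. It also held the reverse complement of CCAAT at -79 and CCAAT at -55. H2-M3, with an r of -0.173 with H2-K1, held TGACGC at -46 and CCAAT or its reverse complement at -129, -36 and -21. B2m held the reverse complement of the response element core at -139 and of CCAAT at -53. Whether such letters bear on how the genes varied was not tested. Of 32851 promoters of the same length, 33.8% held CCAAT, 6.12% TGACGC, 4.98% the kappa B-like letters and 7.13% the response element core. None of these motifs overlapped another in the 3 promoters shown. A match describes the letters only, and other forms of these elements were not searched for. H2-K1 and H2-D1 both hold tttcacttct, which is near the response element core in letters but is no match to it. The lack of a match there is therefore not read as the lack of an interferon element.

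Training was tested between the 8 trained and the 8 untrained libraries labelled KO. In limma 713 of 12572 genes passed, 5.67%, and of the 8 tested genes of the set 1 did, Tap2. Tap2 averaged 3.35 ± 0.574 FPKM without and 2.57 ± 0.274 FPKM with training (SD, n = 8 libraries labelled KO each), a fall of 0.28 (SE 0.0744, limma adjusted p = 0.038), and all 8 trained libraries lay below the untrained median. The fall was 0.17 in females and 0.39 in males. The call was lost in 11 of the 16 fits that left out 1 library (falls of 0.24 to 0.31 over all 16) and in the fit with animal number over 1000 as a covariate (difference -0.32, limma adjusted p = 0.417), and among females number and training cannot be told apart. Tap1 lay lower by 0.21 in the fit without the filter (limma adjusted p = 0.121).

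The heavy chains gave no call for training. H2-K1 differed by 0.02 (SE 0.0768), H2-D1 by 0.06 (SE 0.0877), H2-M3 by 0.04 (SE 0.0970) and H2-Q4 by -0.09 (SE 0.104). H2-T23 differed by 0.17 (SE 0.0991, limma adjusted p = 0.307) and H2-Bl by -0.36 (SE 0.250, limma adjusted p = 0.396). All 8 trained libraries lay below the untrained median of H2-Bl, while the arms overlapped. The H2-Bl difference was 0.05 in females and -0.78 in males, and the test of that sex difference gave no call (-0.83, SE 0.476, limma adjusted p = 0.417).

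Other genes of class I loading did rise in the trained libraries. Of 12 partners 5 passed, all higher, with a median difference over the list of 0.02 beside 0.01 for all tested genes. The chaperone Hspa5 rose by 0.65 (SE 0.0710, limma adjusted p = 0.000215), from 81.3, 86.1 and 113.8 FPKM to 128.6, 137.2 and 165.3 FPKM, with no overlap. Calr rose by 0.40 (SE 0.0499, limma adjusted p = 0.000528), from 123, 138 and 146 FPKM to 166, 178 and 194 FPKM, again with no overlap. Pdia3 rose by 0.30. The translocon subunit Sec61a1 and the ubiquitin-conjugating enzyme Ube2d1 were called at 0.15 and 0.17, and those calls were lost in 13 and 4 of the 16 fits without 1 library and in 6 and 4 of the 13 other settings. These act on secreted and membrane proteins at large or on protein turnover, not on class I alone. Of 9 proteasome genes 0 passed in limma and 3 had an unadjusted p under 0.05, and of 15 interferon-stimulated genes 0 passed and 5 had one; limma-voom called 0 of either.

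Among 20 regulators 3 passed for training. Irf9, which carries the type I interferon signal, rose by 0.26 (limma adjusted p = 0.0329) and Nfya, a subunit of the factor that binds CCAAT, by 0.37 (limma adjusted p = 0.00922). Rfx5, which binds the X box of MHC promoters, fell by 0.28 (limma adjusted p = 0.0338). The calls of Irf9 and Rfx5 were each lost in 7 of the 16 fits without 1 library, and that of Nfya in none of them. Of 44 genes of the H2 region outside the MHC 4 passed, all higher: the heat shock genes Hspa1b and Hspa1a by 0.74 and 0.47, and Abcf1 and Ppp1r10 by 0.25 and 0.21, the last call being lost in 6 of the 16 fits. With animal number over 1000 as a covariate, 0 of the list genes passed against 12 without it. The differences of Hspa5, Calr and Hspa1b were 0.65, 0.37 and 0.70 in that fit (limma adjusted p = 0.17, 0.21 and 0.212), close to those without the covariate, and those of Irf9 and Abcf1 were 0.16 and 0.13. Without trained female library 1 the 12 became 8.

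**Figure D5:**
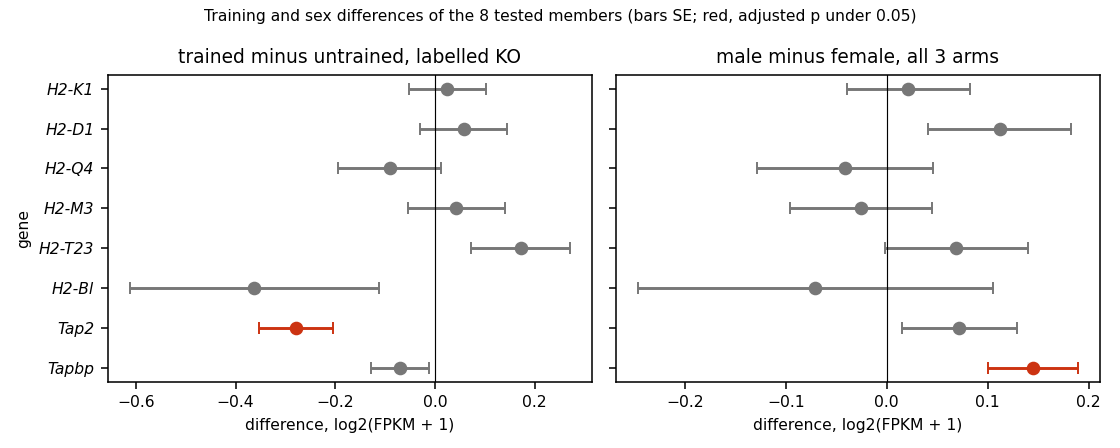
Difference in log2(FPKM + 1) with its SE (x axis) of the 8 tested genes of the set (y axis), for trained minus untrained libraries labelled KO (left, n = 8 against 8) and males minus females over all 3 arms (right, n = 12 against 12). Red marks an adjusted p under 0.05: Tap2 at -0.28 for training and Tapbp at 0.14 for sex.

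Sex was tested over all 24 libraries with the arm as a covariate, and 28.6% of tested genes passed. Of the 8 tested genes of the set 1 passed, Tapbp, which was 0.14 higher in males (SE 0.0444, limma adjusted p = 0.0176). Its mean was 7.85 FPKM in females and 9.16 FPKM in males labelled WT, 8.43 and 9.55 FPKM in the untrained arm labelled KO and 8.24 and 8.73 FPKM in the trained arm, each over 4 mice. After correction for GC content and length the difference was 0.0054 and the call was lost (limma adjusted p = 0.961). H2-D1 was 0.11 higher in males (SE 0.0705, limma adjusted p = 0.242), and the other 6 differed by at most 0.072 in size, with limma adjusted p-values from 0.356 up.

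The genotype label and sex, and training and sex, gave no call in the set. For the first interaction 0% of tested genes passed in limma, with 394 at an unadjusted p under 0.05, and 0 of 8 in the set, also at an unadjusted p under 0.05 and in limma-voom. For the second 0.00795% passed, and again 0 of 8 in the set by all 3 counts. The widest of these differences were those of H2-Bl, at 0.23 (SE 0.430) and -0.83 (SE 0.476), so sex differences of that size in the response of H2-Bl could not be resolved with 4 mice per sex and arm.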

How the data were processed

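RNA of 24 ACC samples was made into stranded poly(A) libraries, as the labels' protocols record. The submitters' processing notes name FastQC 0.11.7, Trimmomatic 0.38, STAR 2.5.3a, featureCounts and Subread 1.6.3, and the build mm10 (GRCm38). The authors deposited FPKM per gene. Within a gene the values are whole multiples of 1 read (99.895% within 0.01 read), and reads were recovered for 15216 genes, the 16 others being highly expressed. All columns were matched to samples by animal number. The 10 genes and all lists were chosen with earlier results of these data known.

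log2(FPKM + 1) was fitted with limma 3.58.1 (R 4.3.3; lmFit, eBayes with trend) over the 12572 genes with a mean of at least 1 FPKM, with sex as a covariate, only the arms compared, Benjamini-Hochberg adjustment and a threshold of 0.05. Both the fit and the read recovery were tested on simulated data. Alternatives were another pseudocount, filters, scalings, designs and limma-voom, and each library left out. Log2 differences understate the change of low genes. Replicates are separate mice. Named are the 10 genes, Thbs1, Thbs2, list genes past the threshold, B2m, Calr, Nlrc5, Psmb8, Psmb9 and the 3 genes most like H2-K1, H2-D1, H2-Bl and H2-T23. Interferon-stimulated and H2-region genes were to be named up to 5 each. Of lists for lymphocytes and blood, border macrophages and class I receptors, 1 of 8, 3 of 5 and 0 of 11 symbols had a row and 0 were tested, so these cells are not analysed here. Choroid plexus and meninges, astrocyte, neuron and oligodendrocyte lists gave 0 calls for the genotype label in limma or limma-voom (4 genes at an unadjusted p under 0.05), and 1 call for training, Sox9, which fell by 0.32. Endothelial Ly6c1 and Ly6a rose with training by 0.49 and 0.36. Sequences are from GENCODE M21 and RefSeq. The promoter table had entries for H2-T22 and for 7 of the 9 genes with rows, and H2-Bl and Tap2 are named only.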

Additional observations from a re-analysis of the deposited data

Results flagged for a closer look

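In 42 groups of 8 libraries (14 genes in 3 arms), 2 values lay apart from the other 7 by more than the critical share of the range in Dixon's test, where chance gives about 2.1. Both belong to trained male library 3 labelled KO and to loading genes. Tap1 was at 1.14 FPKM there against 0.575 to 0.804 FPKM in the other 7, a gap of 0.595 of the range. Tapbp was at 9.80 FPKM against 7.87 to 8.72 FPKM, a gap of 0.556. Leaving this library out kept the training difference of Tapbp without a call.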

How the results depend on the processing

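The count of genes of the set called for training was 1, and it was 0 with a mean of at least 5 FPKM (which leaves Tap2 untested), with quantile normalization, with no sex covariate, with the replicate block and with animal number over 1000 as a covariate, and from 0 to 1 when each library was left out. The count for sex was 1, and 0 with an equal sum per library and with GC and length correction. The 4 list genes called for the genotype label were 2 with a mean of at least 5 FPKM, where H2-T24 and H2-T-ps go untested, and 4 to 6 when each library was left out, with 6 without male untrained library 3 labelled KO. The 12 called for training were 3 with the replicate block, 0 with animal number as a covariate and from 7 to 18 when each library was left out. H2-Bl differed between the labels by 3.36 with a pseudocount of 0.1 and 3.62 with limma-voom, and from 2.02 to 2.30 when each library was left out, and H2-T23 by -0.98 to -0.87. Over all genes the 179 calls for the genotype label became 98 with no sex covariate, 114 with the block and 340 without male untrained library 3 labelled KO. The 713 for training became 29 with the block, 422 with no sex covariate, 1238 with all 24 libraries in one fit, 332 without trained female library 1 and 0 with animal number. The 3595 for sex became 603 with GC and length correction. The cause of these changes was not tested. The replicate numbers name different mice, and same-numbered libraries deviated with a mean correlation of 0.02 for the genotype label and -0.07 for training, so they share only a number. Of 954 alternative values of single tested genes 83 lost a call, and no called value changed sign. Of the uncalled training and sex differences of the set, 9 changed sign in at least 1 setting. H2-M3, H2-T24, Tap1 and H2-Bl in libraries labelled WT rest on few reads, which limits their precision.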

Other observations

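MHC class II genes, which microglia and border macrophages use to present peptides to helper T cells, gave no call for the genotype label or training. Of 3 tested genes 0 passed in limma or limma-voom in those comparisons, and 1 had an unadjusted p under 0.05 in each. Cd74, the class II chaperone, was at 1.14, 1.79 and 3.01 FPKM (lowest, median, highest of 8) in the arm labelled WT, 1.39, 2.69 and 7.15 FPKM in the untrained arm labelled KO and 1.73, 2.39 and 4.84 FPKM in the trained arm. H2-Aa, a class II chain, was at 0.429, 1.18 and 1.52 FPKM, 0.652, 1.48 and 5.06 FPKM and 0.660, 1.42 and 2.70 FPKM. The untrained libraries labelled KO spread more widely than those labelled WT in both genes, and the arms overlapped. H2-DMa, which edits class II peptides, was at 7.51 to 9.27 FPKM in the arm labelled WT and 5.59 to 8.87 FPKM in the trained arm, a level near that of H2-D1 and Tapbp. It was called for sex, 0.20 higher in males over all 3 arms (SE 0.0487, limma adjusted p = 0.00384), where 28.6% of all tested genes passed.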
